A study of Capra hircus with 6 samples.

Results

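The genes described here are 43 targets of the transcription factor p53 and regulators of apoptosis, measured by messenger RNA sequencing in the goat (Capra hircus) line mGSCs-I-SB, labelled as spermatogonial stem cells. They were picked by gene symbol, as 25 p53 targets, 9 further proteins of the BCL2 family and 9 caspases and caspase regulators, and 42 of them had values in a deposited table with values for 16599 genes. The choice of genes was made with earlier results of these data known. TRIAP1 was not analysed here. The 6 libraries came from 3 lines, 2 libraries each. All lines carried short hairpin RNA and grew in the same serum-containing medium: shCON carried a control hairpin and is labelled wild type, shUCHL1 is labelled as a knockdown of the ubiquitin hydrolase UCHL1, and shHSPA8 as a knockdown of the constitutive HSP70 chaperone HSPA8. The number of hairpins per gene, and whether a line is a single clone, are not given in the labels.

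p53 is a transcription factor that accumulates after DNA damage and other stress. Its targets stop the cell cycle (CDKN1A), repair DNA (XPC, DDB2), limit p53 itself (MDM2) or start apoptosis (BBC3, PMAIP1, BAX, FAS). In mitochondrial apoptosis, BH3-only proteins such as BCL2L11 and BMF bind survival proteins such as MCL1 and BCL2L1, which otherwise hold BAX and BAK1 in check. Once the mitochondrial membrane opens, APAF1 assembles the platform that activates CASP9, while death receptors such as FAS activate CASP8, and XIAP and BIRC2 restrain these steps. In the testis this machinery removes surplus and damaged germ cells. Many p53 targets also answer to other regulators, so a change of their transcripts is not specific to p53.

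Libraries held 15710532 to 16417274 counts each, and levels are given as CPM, which is the count relative to the TMM-scaled library total. UCHL1 stood at 405 and 451 CPM in shCON and at 94.3 and 97.7 CPM in shUCHL1, and HSPA8 at 4016 and 4112 CPM in shCON and at 2631 and 2528 CPM in shHSPA8. HSPA8 was also higher in shUCHL1 than in shCON, at 5252 and 5345 CPM (1.30-fold, edgeR adjusted p = 0.0129). That call was lost without either shUCHL1 library and with the replicate number in the fit. UCHL1 stood at 386 and 334 CPM in shHSPA8 and did not pass there against shCON. Of 14 spermatogonial markers, KIT, GFRA1, RET and DDX4 had at most 0.0647, 1.08, 1.53 and 1.95 CPM, and ZBTB16, DAZL, NANOS2, SALL4 and LIN28A carried no values. THY1, ITGA6 and ETV5, which other cells express as well, had means of 154, 82.4 and 12.7 CPM in shCON. THY1 fell 2.43-fold in shUCHL1, RET rose 5.22-fold there from a mean of 0.249 CPM, and ID4 rose 2.30-fold in shUCHL1 and 3.60-fold in shHSPA8. The 8 myoid and fibroblast markers summed to 20859.8 to 22593 CPM in shCON, 24632 to 25219 CPM in shUCHL1 and 27989 to 28399 CPM in shHSPA8, but did not move together. COL3A1 and DCN rose in each knockdown line (1.73-fold and 2.10-fold in shUCHL1), VIM fell in each (1.37-fold in shUCHL1), and ACTA2 and DES fell 2.98-fold and 14.4-fold in shUCHL1. The 5 Sertoli markers with values, of 6 listed, summed to 179 to 187, 134 and 90.1 to 91.3 CPM in these lines. The 5 leukocyte markers, most of it LCP1, summed to 497 to 502, 174 to 188 and 298 to 302 CPM, with PTPRC at most at 0.190 CPM. These also did not move together. LCP1 fell 3.57-fold in shUCHL1 and 1.95-fold in shHSPA8. CD14 had means of 36.0, 47.5 and 58.5 CPM in the same order of lines and passed in shHSPA8 (1.63-fold higher). CD68 had means of 3.38, 3.89 and 4.86 CPM and did not pass against shCON. Endothelial markers summed to at most 5.01 CPM and Leydig markers to at most 1.45 CPM. The part of these marker differences in the results was not tested, and in bulk RNA fewer cells of a type and less RNA per cell cannot be told apart. The labels do not say whether libraries of the same line are separate cultures, and p-values then reflect only library-to-library spread, which may be technical.

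Per transcript length, the 42 genes spanned over 3 orders of magnitude in the deposited FPKM values. In shCON the highest levels per length were those of GADD45A (mean 88.6 FPKM), which acts in arrest and repair, the survival gene MCL1 (68.9 FPKM), the cyclin CCNG1 (59.5 FPKM) and the pore former BAX (56.4 FPKM). DIABLO, which frees caspases from their inhibitors, had 52.8 FPKM and the BH3 protein BID 50.8 FPKM. The BH3-only genes that p53 and stress induce were low in shCON: PMAIP1 had a mean of 1.92 FPKM, BBC3 1.23 FPKM, BMF 0.785 FPKM and BCL2L11 2.48 FPKM. Among survival genes the order per length was MCL1, BCL2L1 (17.5 FPKM) and BCL2 (0.620 FPKM), and this order held in every line. GADD45G and SESN3 were too low to test: GADD45G had 3, 1 and 6 counts in shCON, shUCHL1 and shHSPA8, summed over the 2 libraries, and SESN3 had 9, 14 and 6 counts.

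**Figure D1:**
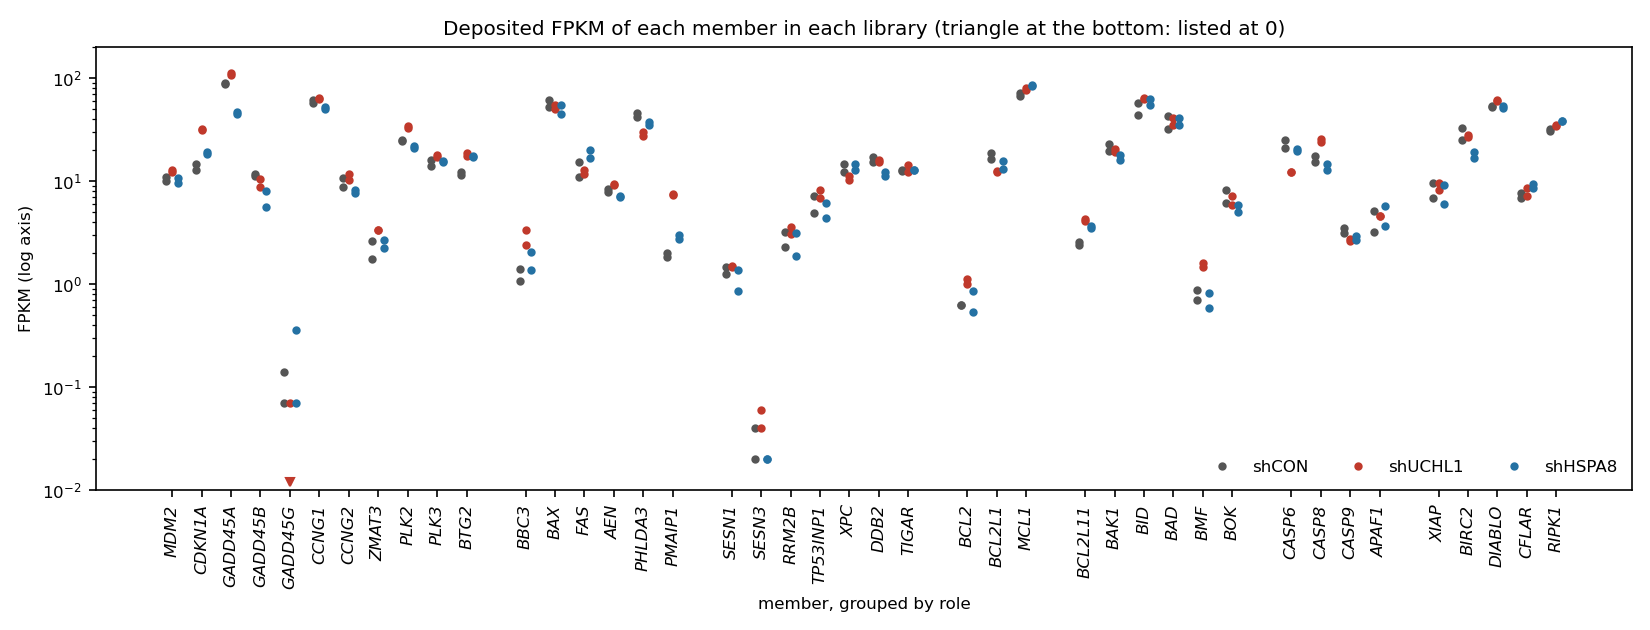
Deposited FPKM (log axis) of 42 genes, grouped by role, with 1 dot per library and colours for the 3 lines. GADD45A, MCL1, CCNG1 and BAX stood highest in shCON and SESN3 and GADD45G lowest, with GADD45G listed at 0 in 1 shUCHL1 library.

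The first comparison set the UCHL1 knockdown against the control line. In shUCHL1 the cell cycle inhibitor CDKN1A rose 2.20-fold and the BH3-only gene PMAIP1 3.67-fold, and the executioner caspase CASP6 fell 1.97-fold. Of the 40 genes tested, 8 rose (CDKN1A, PLK2, BTG2, BBC3, PMAIP1, BCL2L11, BMF and CASP8) and 3 fell (PHLDA3, BCL2L1 and CASP6). Those 11 are 27.5% of the genes tested here. Over all 12665 genes tested, 15.7% passed the same test (8.54% higher and 7.15% lower). Because the genes were chosen with earlier results known, such shares here and below are descriptions and do not test the set. The median log2 fold change was 0.09 over the 40 genes and 0.01 over all genes tested. Without shUCHL1 replicate 1 or 2, 3 or 4 of the 40 passed, and 4.11% or 4.12% of all genes. Fold changes, SE and adjusted p throughout come from edgeR's quasi-likelihood fit, with p adjusted over all genes tested by Benjamini-Hochberg.

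The second comparison set the HSPA8 knockdown against the same control line. In shHSPA8 GADD45A fell 1.92-fold, and the largest rise among the 40 was that of BCL2L11, at 1.56-fold. Here 5 genes rose (CDKN1A, BTG2, BCL2L11, MCL1 and RIPK1) and 4 fell (GADD45A, GADD45B, DDB2 and BIRC2), 22.5% of those tested. The share over all genes tested was 14.7% (8.66% higher and 6.02% lower). The median log2 fold change was -0.10 over the 40 genes and 0.00 over all genes. Only 3 of the 40 passed without either shUCHL1 library (8.62% of all genes) or with only the lines compared in the fit (8.93%), a share below that of all genes. Without shHSPA8 replicate 1 or 2, 2 or 1 passed, against 7.33% or 7.13% of all genes. Both comparisons use the same 2 shCON libraries, so their values are given side by side. The fit shares 1 estimate of the spread per gene over all lines, but the spread was unequal. Against counting noise (chi-square per degree of freedom, all genes tested), it was 21.8 in shCON, 2.38 in shUCHL1 and 11.8 in shHSPA8. A fit with only the lines compared leaves the third line out of that estimate. The share of all genes called then went from 15.7% to 13.1% in shUCHL1 and from 14.7% to 8.93% in shHSPA8. Between the knockdown lines it went from 14.6% to 24.8%. Those fits also repeated the filter and scaling, so the part of the pooling alone was not tested.

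Set directly against each other, the knockdown lines differed most in PMAIP1 (2.50-fold higher in shUCHL1), GADD45A (2.24-fold higher) and BMF (2.06-fold higher). In all, CDKN1A, GADD45A, PLK2, PMAIP1, BMF and CASP8 were higher in shUCHL1 than in shHSPA8, and FAS, PHLDA3 and CASP6 were lower. These 9 are 22.5% of the 40 tested, and 14.6% of all genes tested passed (6.20% higher and 8.35% lower). With scaling by library size alone, which moved the median log2 fold change of all genes from 0.02 to 0.12, the counts were 10 higher and 2 lower (16.4% of all genes passed). After a correction for transcript length they were 8 higher and 7 lower (22.8% of all genes). GADD45A was called in every alternative. The other 8 each lost their call without shUCHL1 replicate 1 and without shUCHL1 replicate 2 (edgeR adjusted p up to 0.264, for PHLDA3), and all of them but CDKN1A also lost it without at least 1 shHSPA8 library. The share of all genes that passed was then 2.00% or 2.18% without a shUCHL1 library, with 1 of the 40 called, and 4.53% or 6.09% without a shHSPA8 library, with 4 or 5 called. PHLDA3 lost its call with library size alone and with the replicate number in the fit as well (edgeR adjusted p up to 0.0772).

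**Figure D2:**
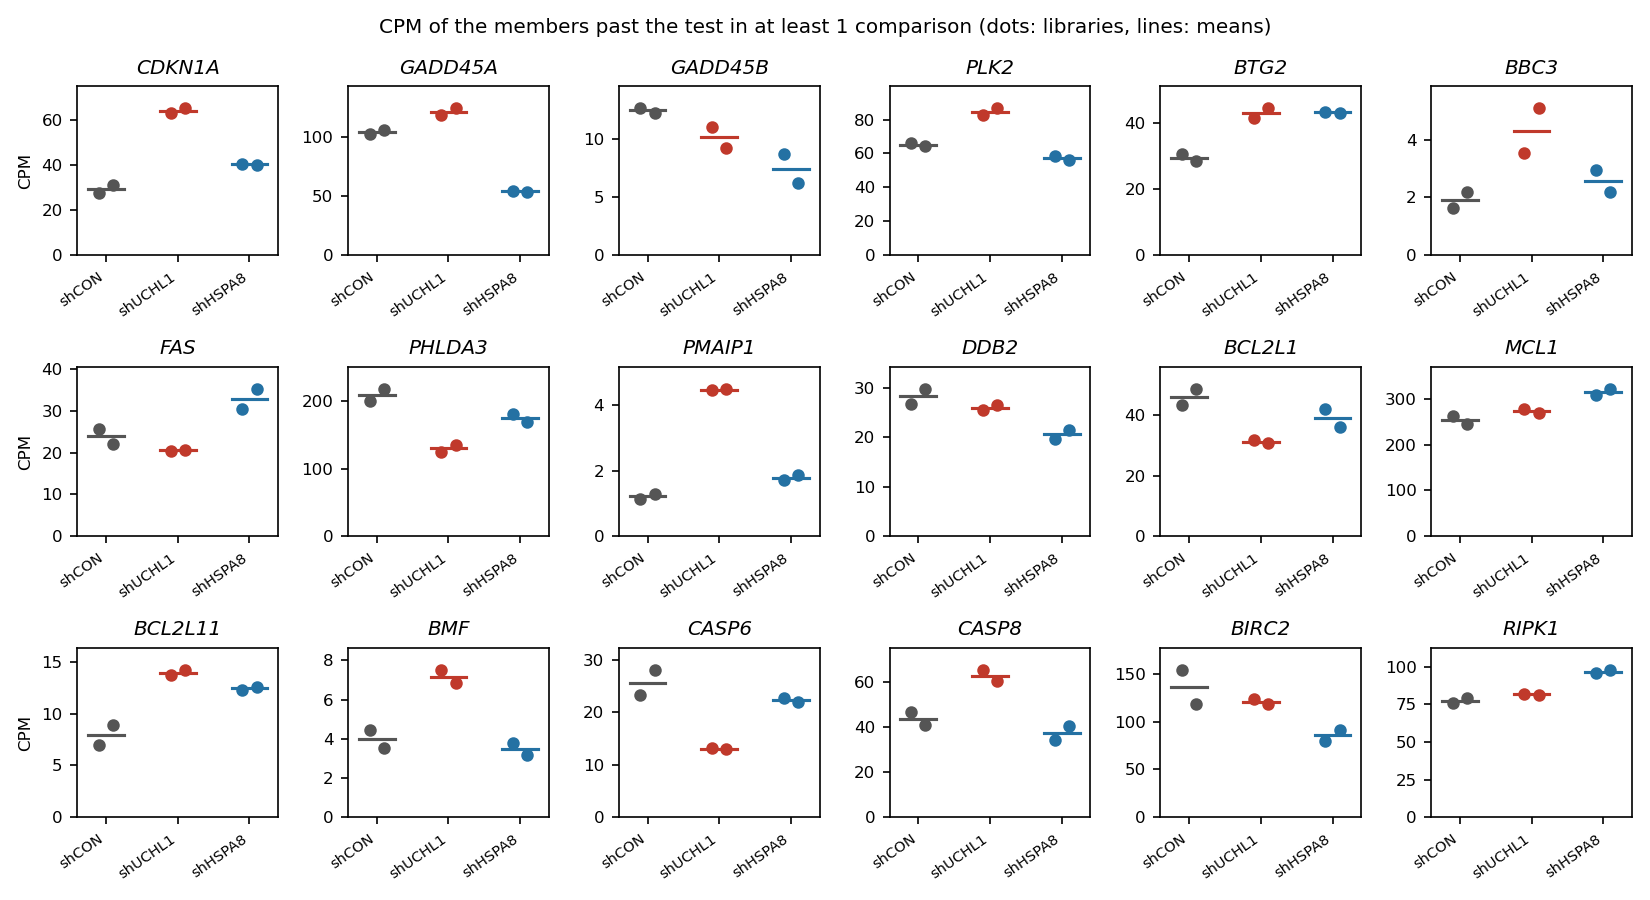
CPM (linear axis from 0) of the 18 genes past the test in at least 1 comparison. Dots are libraries and lines are means of 2 libraries in shCON, shUCHL1 and shHSPA8. CDKN1A and PMAIP1 stand highest in shUCHL1, and GADD45A is lowest in shHSPA8.

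Among the targets that feed back on p53 or arrest the cycle, CDKN1A (gene ID 102179898), which encodes the cyclin-dependent kinase inhibitor p21, formed a graded series over the lines. It stood at 27.4 and 30.9 CPM in shCON, 40.6 and 39.9 CPM in shHSPA8 and 63.0 and 65.2 CPM in shUCHL1, with no overlap between any lines. Its log2 fold change was 1.14 (SE 0.10, adjusted p = 0.000764) in shUCHL1, 0.47 (SE 0.10, adjusted p = 0.0247) in shHSPA8 and 0.67 (SE 0.10, adjusted p = 0.0068) between the knockdown lines. The call in shUCHL1 was kept without any 1 library. In shHSPA8 it was lost without every library other than shCON replicate 2 in turn. It was also lost with only the shCON and shHSPA8 libraries in the fit and with the replicate number in the fit. CDKN1A counts carried decimal fractions in 6 libraries, and how the counting made them is not given in the sources.

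GADD45A (gene ID 102179904), a stress-induced partner of cell cycle and repair proteins, separated the knockdown lines. It stood at 103 and 106 CPM in shCON, 119 and 125 CPM in shUCHL1 and 54.6 and 53.7 CPM in shHSPA8. The shHSPA8 libraries lay below all others (log2 fold change -0.94, SE 0.09, adjusted p = 0.000645 against shCON), and that call was kept without any 1 library. Between the knockdown lines the difference was 1.17 (SE 0.09, adjusted p = 0.000577). In shUCHL1 its value of 0.22 (SE 0.09, adjusted p = 0.132) did not pass, and after the length correction it did (0.29, adjusted p = 0.0333). The paralogue GADD45B stood at 12.7 and 12.3 CPM in shCON, 11.1 and 9.23 CPM in shUCHL1 and 8.72 and 6.21 CPM in shHSPA8. It fell in shHSPA8 (-0.74, SE 0.19, adjusted p = 0.041), a call lost with only the 2 lines in the fit and without each library other than shHSPA8 replicate 1 (adjusted p up to 0.182).

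BTG2, an antiproliferative cofactor of transcript decay, was raised to a like level in each knockdown line. It stood at 30.5 and 28.3 CPM in shCON, 41.3 and 44.4 CPM in shUCHL1 and 43.2 and 43.0 CPM in shHSPA8. Its log2 fold change was 0.54 (SE 0.10, adjusted p = 0.0124) in shUCHL1 and 0.55 (SE 0.10, adjusted p = 0.0114) in shHSPA8, and the difference between the knockdown lines was -0.01, with a 95% interval (normal approximation) from -0.20 to 0.18. The polo-like kinase PLK2 parted the lines: 66.0 and 64.4 CPM in shCON, 82.7 and 86.8 CPM in shUCHL1 and 58.5 and 56.1 CPM in shHSPA8. It rose in shUCHL1 (0.38, SE 0.09, adjusted p = 0.0301), was 1.48-fold higher there than in shHSPA8 (adjusted p = 0.00826), and had -0.19 (SE 0.09, adjusted p = 0.218) in shHSPA8 against shCON. BTG2 lost each call without either library of the knockdown line in question (adjusted p up to 0.158 in shUCHL1 and 0.0647 in shHSPA8). PLK2 lost its call against shCON with DESeq2, with only the 2 lines in the fit and with the replicate number in the fit. It also lost that call when any library except shCON replicate 1 was left out.

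The remaining targets of this role did not pass in any comparison. MDM2, the ubiquitin ligase through which p53 limits itself, stood at 48.2 and 43.0 CPM in shCON, 52.2 and 51.0 CPM in shUCHL1 and 42.2 and 48.2 CPM in shHSPA8. Its log2 fold change was 0.18 (SE 0.11, adjusted p = 0.339) in shUCHL1 and -0.01 (SE 0.11, adjusted p = 0.962) in shHSPA8. The cyclins CCNG1 (0.03 and -0.21) and CCNG2 (0.08 and -0.29) and the kinase PLK3 (0.14 and 0.06) also did not pass in shUCHL1 and shHSPA8 in that order. ZMAT3, an RNA-binding target, stood at 21.5 and 14.1 CPM in shCON, 25.8 and 26.1 CPM in shUCHL1 and 18.5 and 22.6 CPM in shHSPA8. The shCON libraries of ZMAT3 lay far apart, and its value of 0.55 (SE 0.20, adjusted p = 0.121) in shUCHL1 passed after the length correction (0.46, adjusted p = 0.0298) and without shCON replicate 1 (0.86, adjusted p = 0.0118).

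Of the targets in repair, nucleotide supply and metabolism, none of 6 tested passed in shUCHL1 (1 at an unadjusted p under 0.05, none by DESeq2). Over all genes the share was 15.7% there and 14.7% in shHSPA8. Only DDB2, which recognises ultraviolet lesions, passed in shHSPA8. It stood at 26.8 and 29.8 CPM in shCON, 25.5 and 26.6 CPM in shUCHL1 and 19.7 and 21.6 CPM in shHSPA8 (log2 fold change -0.45, SE 0.11, adjusted p = 0.0401 in shHSPA8). That call was lost with DESeq2, with only the 2 lines in the fit and with the replicate number in the fit. It was also lost when any library except shCON replicate 1 was left out. XPC, which starts nucleotide excision repair, stood at 38.7 and 45.5 CPM in shCON, 33.5 and 31.0 CPM in shUCHL1 and 46.8 and 41.3 CPM in shHSPA8. Both shUCHL1 libraries of XPC lay below all others, at -0.39 (SE 0.12, adjusted p = 0.0799) against shCON and -0.45 (SE 0.12, adjusted p = 0.0527) against shHSPA8. With the length correction both passed (adjusted p = 0.0462 and 0.0236). The difference from shHSPA8 also passed with DESeq2 (adjusted p = 0.0481) and with only the 2 lines in edgeR's fit (adjusted p = 0.0198). The ribonucleotide reductase subunit RRM2B (0.21 and -0.11), the stress protein SESN1 (0.04 and -0.23), the autophagy regulator TP53INP1 (0.22 and -0.18) and the phosphatase TIGAR (-0.01 and 0.04) did not pass in shUCHL1 or shHSPA8.

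Of 6 p53 targets tested that act in cell death, 2 were called higher and 1 lower in shUCHL1. Over all genes 8.54% were called higher and 7.15% lower there. The median log2 fold change of the 6 was -0.05. PMAIP1 (gene ID 102175063), the BH3-only protein NOXA that neutralises MCL1, stood at 1.14 and 1.29 CPM in shCON, 4.46 and 4.50 CPM in shUCHL1 and 1.71 and 1.87 CPM in shHSPA8. These rest on 39 counts in shCON, 148 in shUCHL1 and 56 in shHSPA8, and no lines overlapped. Its log2 fold change was 1.88 (SE 0.20, adjusted p = 0.0017) in shUCHL1, a call kept without any 1 library, 0.56 (SE 0.23, adjusted p = 0.192) in shHSPA8 and 1.32 (SE 0.19, adjusted p = 0.00628) between the knockdown lines. BBC3, the BH3-only protein PUMA, stood at 1.65 and 2.20 CPM in shCON, 3.54 and 5.10 CPM in shUCHL1 and 2.97 and 2.20 CPM in shHSPA8. It rose in shUCHL1 (1.16, SE 0.28, edgeR adjusted p = 0.033). The call was lost without shCON replicate 1 or either shUCHL1 library, and with the replicate number in the fit (adjusted p = 0.0584).

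PHLDA3, an inhibitor of AKT signalling, was the p53 target that fell in shUCHL1. It stood at 199.9 and 218 CPM in shCON, 125 and 135 CPM in shUCHL1 and 181 and 169.5 CPM in shHSPA8, in 3 ranges that did not overlap. Its log2 fold change was -0.69 (SE 0.09, adjusted p = 0.00392) in shUCHL1, lost only without shUCHL1 replicate 1 among the left-out libraries (adjusted p = 0.0699), and -0.25 (SE 0.09, adjusted p = 0.12) in shHSPA8. The death receptor FAS stood at 25.6 and 22.1 CPM in shCON, 20.3 and 20.7 CPM in shUCHL1 and 30.5 and 35.2 CPM in shHSPA8, again without overlap. It was 1.60-fold higher in shHSPA8 than in shUCHL1 (adjusted p = 0.0154). Against shCON it had 0.46 (SE 0.13, adjusted p = 0.052) in shHSPA8, just outside the threshold, and passed after the length correction (adjusted p = 0.039). BAX (-0.23 and -0.24) and the nuclease AEN (0.12 and -0.16) did not pass in shUCHL1 or shHSPA8. FAS counts carried fractions in 4 libraries.

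**Figure D3:**
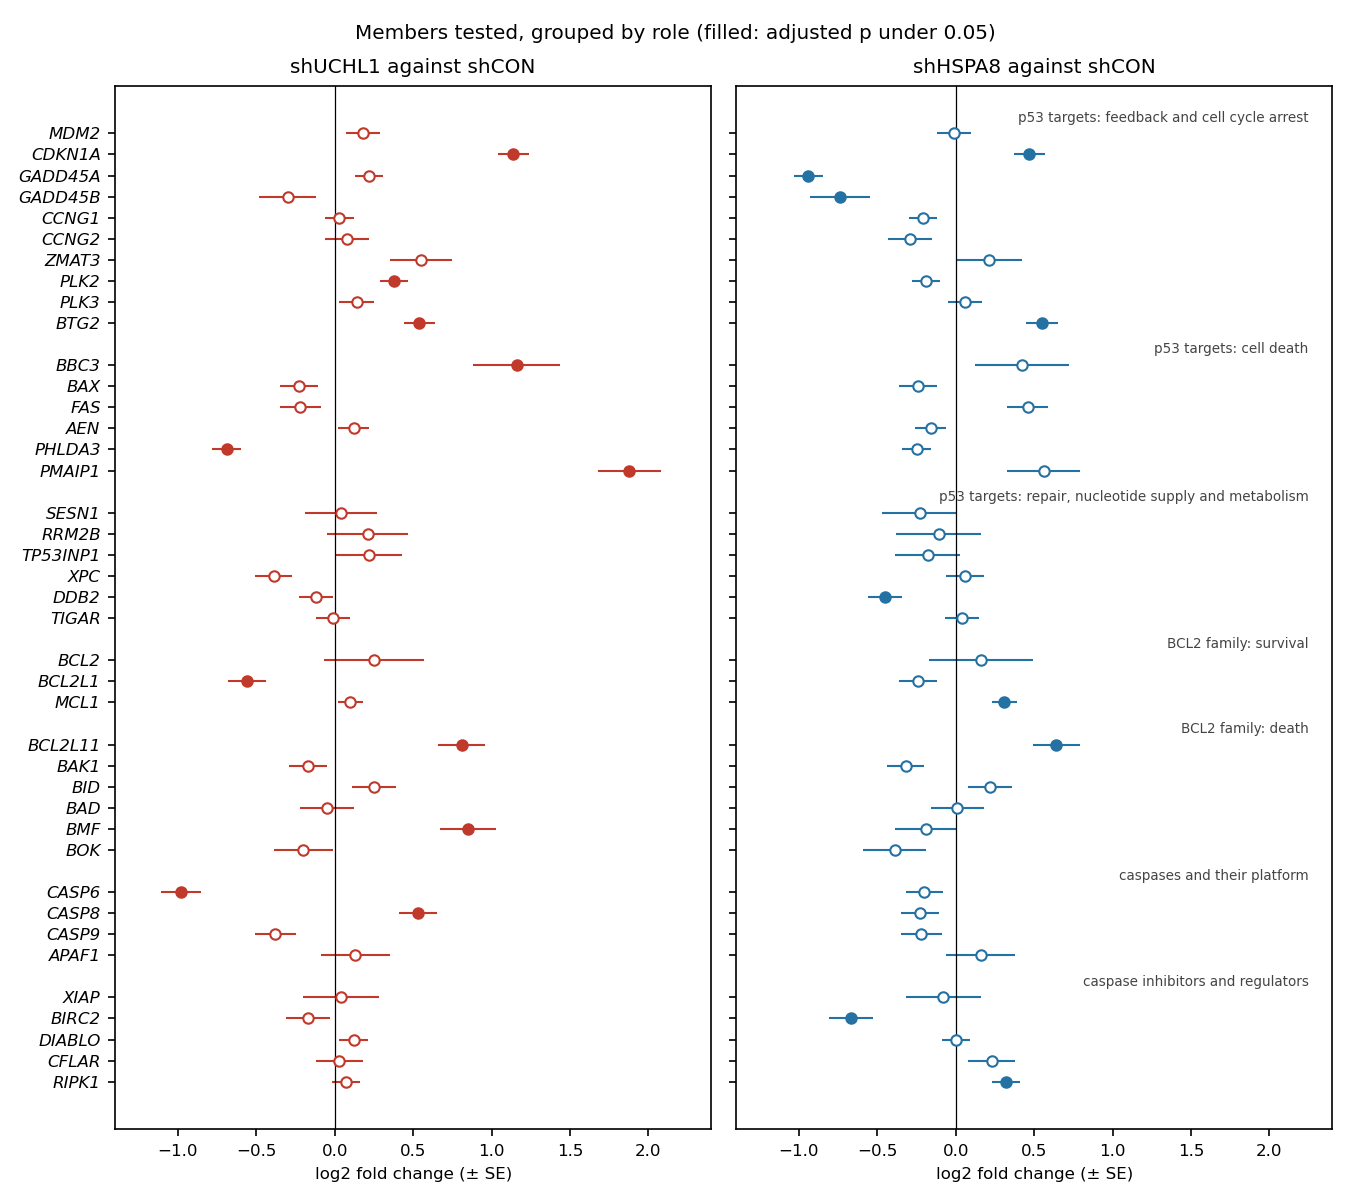
Log2 fold change with its SE for the 40 genes tested, in shUCHL1 (left) and shHSPA8 (right) against the same 2 shCON libraries, ordered by role. Filled points passed the test, 11 on the left and 9 on the right, and MDM2, CCNG1, BAX, XIAP and DIABLO are open in each panel.

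Of the survival genes of the BCL2 family, BCL2L1 (the gene of BCL-XL) was lower in shUCHL1 and MCL1 higher in shHSPA8. BCL2L1 stood at 43.2 and 48.5 CPM in shCON, 31.7 and 30.7 CPM in shUCHL1 and 41.9 and 35.9 CPM in shHSPA8. Its log2 fold change was -0.56 (SE 0.12, adjusted p = 0.0205) in shUCHL1 and -0.24 (SE 0.12, adjusted p = 0.233) in shHSPA8. MCL1, a short-lived survival protein, stood at 262 and 245 CPM in shCON, 277 and 268 CPM in shUCHL1 and 308 and 321 CPM in shHSPA8. It rose 1.24-fold in shHSPA8 (0.31, SE 0.08, adjusted p = 0.0436) and had 0.10 (SE 0.08, adjusted p = 0.452) in shUCHL1. BCL2L1 lost its call without either shUCHL1 library and with the replicate number in the fit (edgeR adjusted p = 0.0584 for the latter). MCL1 lost its call with DESeq2, with library size alone, with no low-count filter, with only the 2 lines in the fit and with the replicate number in the fit. It also lost its call when any library except shCON replicate 1 was left out. BCL2 itself lay between 0.673 and 0.899 CPM in all 6 libraries.

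On the other side of that family, the BH3-only genes BCL2L11 and BMF rose, and the pore-forming proteins did not pass. BCL2L11 (gene ID 102171716), which encodes BIM, stood at 6.96 and 8.94 CPM in shCON, 13.7 and 14.2 CPM in shUCHL1 and 12.3 and 12.6 CPM in shHSPA8. Both knockdown lines lay above shCON: 0.81 (SE 0.15, adjusted p = 0.0132) in shUCHL1 and 0.64 (SE 0.15, adjusted p = 0.0331) in shHSPA8. BMF, which senses detachment and cytoskeletal stress, stood at 4.43 and 3.55 CPM in shCON, 7.51 and 6.83 CPM in shUCHL1 and 3.79 and 3.17 CPM in shHSPA8. It rose in shUCHL1 (0.85, SE 0.18, adjusted p = 0.0222) and was also higher there than in shHSPA8 (1.04, SE 0.19, adjusted p = 0.0133), while shHSPA8 overlapped shCON. BCL2L11 lost its call in shUCHL1 without either shUCHL1 library, and in shHSPA8 when any library except shCON replicate 2 was left out. In shHSPA8 it was also lost with only the 2 lines in the fit and with the replicate number in the fit. BMF lost its call against shCON with DESeq2 (adjusted p = 0.0552) and without shCON replicate 2 or either shUCHL1 library (up to 0.18).

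The pore former BAK1 had -0.17 and -0.32 in shUCHL1 and shHSPA8, BOK -0.20 and -0.39, BAD -0.05 and 0.01, and BID 0.25 and 0.22, none past the test. BAK1 passed in shHSPA8 without shCON replicate 1 (-0.45, adjusted p = 0.0446). BID stood at 41.4 and 54.7 CPM in shCON and between 52.6 and 59.5 CPM in the 4 knockdown libraries. Without shCON replicate 2 it passed in each knockdown line (0.46, adjusted p = 0.0422 in shUCHL1, and 0.44, adjusted p = 0.0429 in shHSPA8).

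Of 4 caspases and their platform tested, 1 fell and 1 rose in shUCHL1, where 15.7% of all genes passed. CASP6 (gene ID 102184605), an executioner caspase that cleaves lamins, stood at 23.2 and 28.0 CPM in shCON, 13.1 and 13.0 CPM in shUCHL1 and 22.6 and 22.0 CPM in shHSPA8. Its fall of -0.98 (SE 0.13, adjusted p = 0.00352) in shUCHL1 was kept without any 1 library. CASP8, the initiator caspase of death receptors, stood at 46.5 and 40.7 CPM in shCON, 65.2 and 60.3 CPM in shUCHL1 and 34.3 and 40.2 CPM in shHSPA8. It rose in shUCHL1 (0.53, SE 0.12, edgeR adjusted p = 0.0279). That call was lost without shCON replicate 2 or either shUCHL1 library, and with the replicate number in the fit (adjusted p = 0.0727). Between the knockdown lines CASP8 was 1.68-fold higher in shUCHL1 (adjusted p = 0.00918) and CASP6 1.71-fold lower (adjusted p = 0.0103). The initiator CASP9 (-0.38 and -0.22, adjusted p = 0.0919 and 0.299) and its platform APAF1 (0.13 and 0.16) did not pass in shUCHL1 or shHSPA8.

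Of 5 caspase inhibitors and regulators, 1 fell and 1 rose in shHSPA8, where 14.7% of all genes passed. None passed edgeR's test in shUCHL1 (0 at an unadjusted p under 0.05, none by DESeq2), where 15.7% of all genes passed. Whether the lines differ in this count was not tested. BIRC2, the ubiquitin ligase cIAP1, stood at 154 and 118 CPM in shCON, 124 and 118 CPM in shUCHL1 and 79.3 and 91.7 CPM in shHSPA8. It fell in shHSPA8 (-0.67, SE 0.14, edgeR adjusted p = 0.0223) and had -0.17 (SE 0.14, adjusted p = 0.499) in shUCHL1. The call in shHSPA8 was lost without either shHSPA8 library and with the replicate number in the fit (adjusted p = 0.0524). Between the knockdown lines BIRC2 did not pass edgeR's test on all libraries. It was called higher in shUCHL1 with DESeq2 (0.49, adjusted p = 0.0236) and with only the 2 lines in the fit (0.50, adjusted p = 0.011). RIPK1, the kinase that joins death receptors to survival or death signalling, stood at 75.9 and 79.3 CPM in shCON, 82.2 and 81.3 CPM in shUCHL1 and 95.8 and 97.9 CPM in shHSPA8. Its rise of 1.25-fold in shHSPA8 (0.32, SE 0.09, adjusted p = 0.0481) lay just inside the threshold. RIPK1 lost its call with DESeq2, with library size alone, with no low-count filter, with only the 2 lines in the fit and with the replicate number in the fit. It also lost its call when any library except shCON replicate 2 was left out. XIAP (0.04 and -0.08), DIABLO (0.12 and 0.00) and the CASP8 inhibitor CFLAR (0.03 and 0.23) did not pass.

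For several long transcripts the libraries of a line lay apart. XIAP stood at 59.0 and 41.5 CPM in shCON and at 36.9 and 57.9 CPM in shHSPA8, and APAF1 at 34.6 and 23.1 CPM in shCON and 26.6 and 37.9 CPM in shHSPA8. RRM2B had 14.6 and 10.5 CPM in shCON and 8.66 and 14.7 CPM in shHSPA8. Each was higher in replicate 1 of shCON and in replicate 2 of shHSPA8. Across the 40 genes, the difference between the libraries of a line and log2 transcript length had a Pearson r of 0.65 in shCON, 0.35 in shUCHL1 and -0.59 in shHSPA8. Spearman's rho was 0.58, 0.40 and -0.55. Over all 12665 genes r was 0.47, 0.21 and -0.43, so the pattern is not particular to these genes. These correlations are across genes of the same libraries and are given as a description. The SE was 0.20 to 0.27 on the log2 scale for ZMAT3, APAF1, XIAP and RRM2B, against 0.08 or 0.09 for MCL1, GADD45A and PLK2. Small differences were less detectable for ZMAT3, APAF1, XIAP and RRM2B. Other long transcripts varied against shCON, with an SE of 0.09 for PHLDA3 (4.70 kb), 0.13 for CASP9 (4.79 kb) and 0.21 for TP53INP1 (5.32 kb). MCL1, GADD45A and PLK2 also had higher CPM, and the parts of length and level in the SE were not tested.

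**Figure D4:**
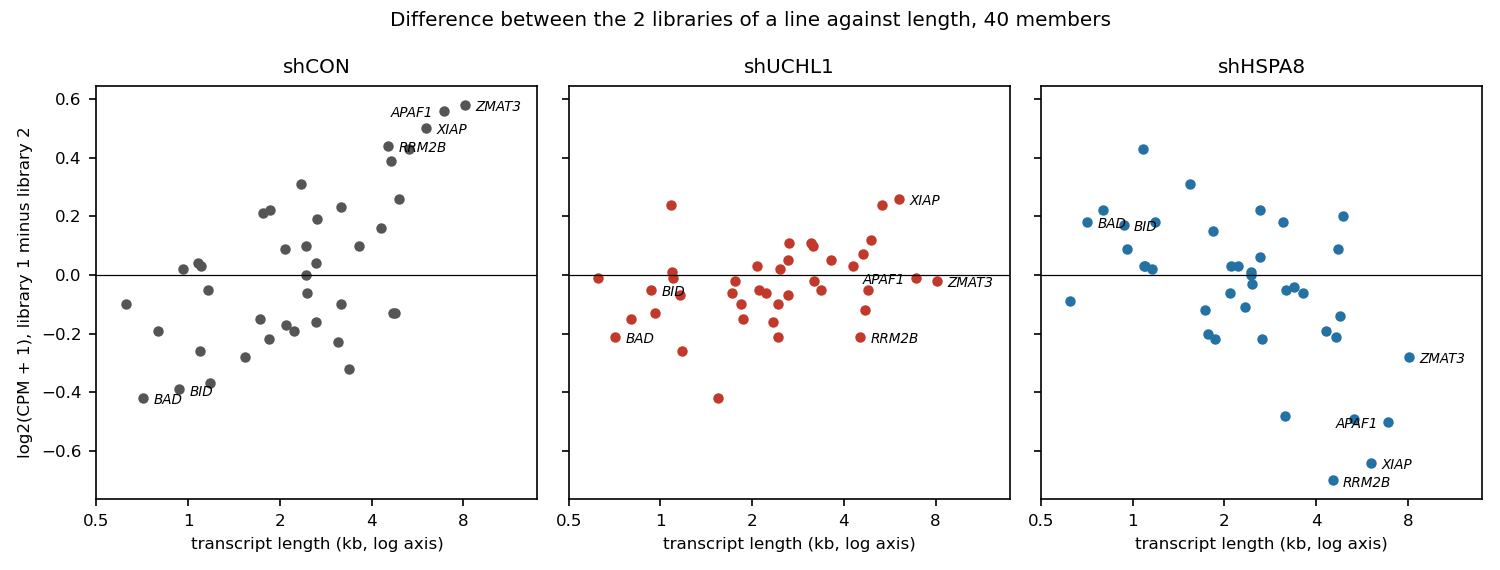
Difference in log2(CPM + 1) between replicate 1 and replicate 2 of each line against transcript length (kb, log axis), 1 point for each of 40 genes. Long transcripts such as XIAP, APAF1 and ZMAT3 lie high in shCON and low in shHSPA8, and points of shUCHL1 lie closest to 0.

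Among regulators of p53, named for their role after their values were seen, the inhibitor MDM4 had log2 fold changes of 0.52 and 0.26 in shUCHL1 and shHSPA8 against shCON. The DNA damage kinases ATM (-0.10 and -0.22) and CHEK2 (0.08 and -0.04) are given in the same order, and none of these genes passed the test in either line.

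A list of other p53 targets gave 5 higher and 3 lower of 27 tested in shUCHL1 (29.6%, against 15.7% of all genes). In shHSPA8 it gave 4 higher and 1 lower (18.5%, against 14.7%). That list was also chosen with earlier results known, so its shares are descriptions. SESN2, a stress-induced inhibitor of mTORC1, rose 2.53-fold in shUCHL1 (adjusted p = 0.00265). SUSD6 stood at 28.5 and 30.7 CPM in shCON, 52.6 and 48.3 CPM in shUCHL1 and 78.6 and 77.8 CPM in shHSPA8, and DRAM1, a lysosomal membrane protein that promotes autophagy, at 23.9 and 24.5, 34.8 and 36.2, and 59.8 and 58.8 CPM. Each was called in shUCHL1 (1.70-fold for SUSD6 and 1.46-fold for DRAM1) and in shHSPA8 (2.64-fold and 2.45-fold), and in shHSPA8 also without any 1 library. NINJ1, which ruptures the plasma membrane of dying cells, rose 2.38-fold in shHSPA8 (adjusted p = 0.00392), and TP53I11 4.13-fold, from 0.507 and 0.306 CPM (adjusted p = 0.0431). NINJ1 also rose 1.64-fold in shUCHL1 (edgeR adjusted p = 0.0361). That call was lost without shCON replicate 1 or either shUCHL1 library, and with the replicate number in the fit. TP53I11 was 3.10-fold higher in shUCHL1 but did not pass (adjusted p = 0.0943). IER5 fell 1.52-fold in shUCHL1 and 1.39-fold in shHSPA8. In shUCHL1, SUSD6 lost its call without shUCHL1 replicate 1 (adjusted p = 0.0568), and DRAM1 and IER5 lost theirs without either shUCHL1 library (adjusted p up to 0.136). In shHSPA8, TP53I11 lost its call without any of the 4 libraries compared, and with no low-count filter. IER5 lost its call there without 3 of the 6 libraries, shHSPA8 replicate 2 and either shUCHL1 library, and with only the 2 lines in the fit. Both genes also lost their call in shHSPA8 with the replicate number in the fit.

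Other apoptosis genes gave 3 higher and 1 lower of 23 tested in shUCHL1, a share of 17.4% near the 15.7% of all genes. In shHSPA8 none passed edgeR's test (4 at an unadjusted p under 0.05, none by DESeq2), and log2 fold changes ran from -0.23 to 0.76. Whether the lines differ in this count was not tested. The mitophagy receptors BNIP3 (155 and 187 CPM in shCON, 233 and 241 CPM in shUCHL1) and BNIP3L (74.6 and 75.1 CPM, then 107 and 110.1 CPM) rose 1.39-fold and 1.45-fold in shUCHL1. BIRC3, the paralogue cIAP2, stood at 75.3 and 56.1 CPM in shCON and 106 and 102 CPM in shUCHL1, a rise of 1.58-fold. DFFB, the nuclease that cuts DNA in apoptosis, fell 2.03-fold, from 12.9 and 17.0 CPM to 8.06 and 6.65 CPM. Their adjusted p ran from 0.00885 for BNIP3L to 0.0323 for BIRC3. DFFB lost its call without shUCHL1 replicate 2, BNIP3 and BNIP3L without either shUCHL1 library, and BIRC3 also without shCON replicate 2. BNIP3 and BIRC3 lost theirs with the replicate number in the fit as well.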

How the data were processed

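The members and gene lists were chosen with earlier results of these data known. The submitters' processing notes name Trimmomatic 0.36. Not given in the sources used here are strandedness, genome build, aligner and counting tool, so coordinates are left out. Per the file headers, the authors give FPKM and a read count per library. Because 1014 to 1117 genes per library had fractional counts, the deposited counts were treated like expected counts (estimates) and rounded. The deposited FPKM values gave levels per length and, with the counts, transcript length. Groups came from sample titles. Genes were tested by quasi-likelihood F tests in edgeR 4.0.16 (glmQLFit, R 4.3.3) after filterByExpr and TMM scaling, on group alone, over 12665 genes and all 6 libraries, with p adjusted within each comparison (Benjamini-Hochberg) and called under 0.05. The SE is the absolute log2 fold change divided by the square root of F. Where a line was left with 1 library, it was assumed to have the spread seen in the rest. Genes past the threshold in any comparison were described per library, the others by value. From each list of other pathway genes the 5 with the lowest p per comparison with shCON were eligible, and some genes are not reported here. In simulated data (shUCHL1 against shCON, 12665 genes) the fit called 47 of 78 genes changed 1.5-fold, 59 of 66 changed 2-fold, 56 of 56 changed 4-fold and 8 of 12465 unchanged genes. The simulation drew independent counts with the same dispersion trend in every line and no length trend. It changed only genes with a mean above 1 CPM in shCON. The data had unequal spread and a length trend, so these shares may not hold for them. Alternatives were DESeq2 1.42.0, library size alone, no low-count filter, only the lines compared, and a replicate block (the replicate number in the fit). The others were each library left out, and a length correction that removed each library's loess trend on log transcript length through offsets.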

Additional observations from a re-analysis of the deposited data

How the results depend on the processing

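Over the 40 genes tested, none of the called directions turned under any alternative. The calls of CDKN1A, PMAIP1 and CASP6 in shUCHL1, of GADD45A in shHSPA8 and of GADD45A between the knockdown lines were kept in every alternative run. Leaving out each library in turn gave 3 to 12 called in shUCHL1 (11 with all libraries), 1 to 7 in shHSPA8 (9) and 1 to 11 between the knockdown lines (9). The share of all genes called also varied, from 4.11% to 20.2%, from 7.13% to 18.7% and from 2.00% to 23.9%. With only the 2 lines compared in the fit, 3 were called in shHSPA8 (8.93% of all genes). After the length correction, 15 were called between the knockdown lines (22.8% of all genes). With library size alone, shHSPA8 had 3 higher and 4 lower in place of 5 and 4, with 14.9% of all genes called in place of 14.7%. Replicate numbers were shared by the lines. The deviations of same-numbered libraries correlated at 0.34 (shCON and shUCHL1), -0.68 (shCON and shHSPA8) and -0.34 (shUCHL1 and shHSPA8). A length trend also runs through these deviations, so the correlations cannot show whether the numbers pair the libraries. With a replicate block, 7 were called in shUCHL1 (9.71% of all genes), 3 in shHSPA8 (8.93%), which is below the share of all genes, and 8 between the knockdown lines (7.29%). The cause of these changes was not tested. With 2 libraries per line, differences of 1.5-fold or less are often not detectable.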
